A study of Mus musculus with 12 samples.

Results

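The nuclear genes for the subunits of the mitochondrial respiratory chain and ATP synthase, with the Ndufaf assembly factors of complex I, were followed in the left ventricle of mice after pressure overload. Members were the genes whose symbol starts with Nduf, Uqcr or Atp5, the genes Sdha, Sdhb, Sdhc and Sdhd, and the Cox4 to Cox8 subunit genes. Of 112 rows chosen by symbol, 14 whose name contains -ps were left out, among them Ndufb1-ps and Ndufa12-ps with mean counts of 4959 and 2130. Another 8 had a mean raw count below 100. The remaining 90 of the 55401 genes in the table comprised 36 complex I subunits, 8 Ndufaf assembly factors, 4 complex II subunits, 8 complex III subunits, 17 complex IV genes and 17 complex V subunits. Ndufa4 and Ndufa4l2 were placed with complex IV, because NDUFA4 is known as a subunit of that complex despite its name. Cox7a2l, which helps join complexes III and IV into supercomplexes, is also among the complex IV genes by its symbol. The member with the lowest mean count was Cox4i2 with 222, and the highest of those left out for low counts was Cox6b2 with 30.8.

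RNA was sequenced from 12 libraries in 4 groups of 3: Prkca T497A mice after transverse aortic constriction (TAC), Prkca T497A mice after sham surgery, wild type (WT) mice after TAC and WT mice after sham surgery. Prkca encodes protein kinase C alpha, and T497A replaces a threonine of the kinase's activation loop with alanine. TAC narrows the aortic arch and loads the left ventricle with pressure. Surgery took place at 10 weeks of age and tissue was taken 5 weeks later, at 15 weeks. The labels call the cell type cardiomyocyte and the tissue left ventricle, the protocol names no sorting step, and neither the strain background nor whether each library is 1 animal is given in the sources used here. The p-values therefore measure the spread between these libraries.

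The respiratory chain passes electrons from NADH through complex I, or from succinate through complex II, to ubiquinone, then through complex III and cytochrome c to complex IV, where oxygen is reduced. Complexes I, III and IV pump protons across the inner mitochondrial membrane, and complex V, the ATP synthase, uses the return of these protons to make ATP. Complexes I, III, IV and V combine nuclear subunits with a few encoded by mitochondrial DNA, whereas complex II is entirely nuclear. Heart muscle depends on this machinery for most of its ATP, and several complex IV subunits exist as a muscle isoform and a more widespread isoform. Assembly factors build the complexes and are not part of the finished enzyme.

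Library totals ran from 36862004 to 46898344 counts, and the biological coefficient of variation over all tested genes was 17.2%. Levels below are CPM, counts relative to the library total, scaled with TMM factors, which adjust library sizes so that most genes do not shift. Changes are log2 fold changes ± SE from edgeR's quasi-likelihood test over all 4 groups, with Benjamini-Hochberg adjustment over 15764 tested genes and a threshold of 0.05. All 90 members were among the tested genes. In bulk tissue, fewer cells of a type and less RNA per cell cannot be told apart.

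Per kilobase of their principal transcript, members spanned a wide range in WT sham ventricles. Atp5b and Atp5a1, the catalytic beta and alpha subunits of ATP synthase, stood highest at 2304 and 1692 CPM per kilobase, followed by the c-ring gene Atp5g3 at 1289 and Cox4i1 at 1166. Class medians of the same quantity were 197 for complex I subunits, 414 for complex II, 426 for complex III, 461 for complex IV and 458 for complex V. The assembly factors had a median of 15.1 CPM per kilobase and a range of 9.53 to 38.4. Isoforms of restricted expression, Cox4i2 at 7.06 and Ndufa4l2 at 10.1 CPM per kilobase, were at the foot of complex IV.

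After TAC in WT mice, transcripts of all 5 complexes fell together and by a modest amount on the TMM scale. Relative to cardiomyocyte markers, as given further on, their median stood at 0.01, against 0.35 over all tested genes. Of the 90 members, 68 were lower in WT TAC than in WT sham ventricles and 0 were higher, where 12.6% of all tested genes were lower and 12.3% were higher. The members had a median log2 fold change of -0.32, a level 1.25 times lower, and the median over all tested genes was 0.01. In 73 members every WT TAC library lay below every WT sham library, in 3 every one lay above, and in 14 the groups overlapped. Over all tested genes these arrangements made up 20.7% and 21.5%. Without WT TAC replicate 3, or without WT sham replicate 2, 52 members were called lower. In those 2 fits 1416 and 1687 of all tested genes were lower, against 1993 with every library. In each of the 12 fits that left out 1 library, 50 of the 68 members were called.

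**Figure D1:**
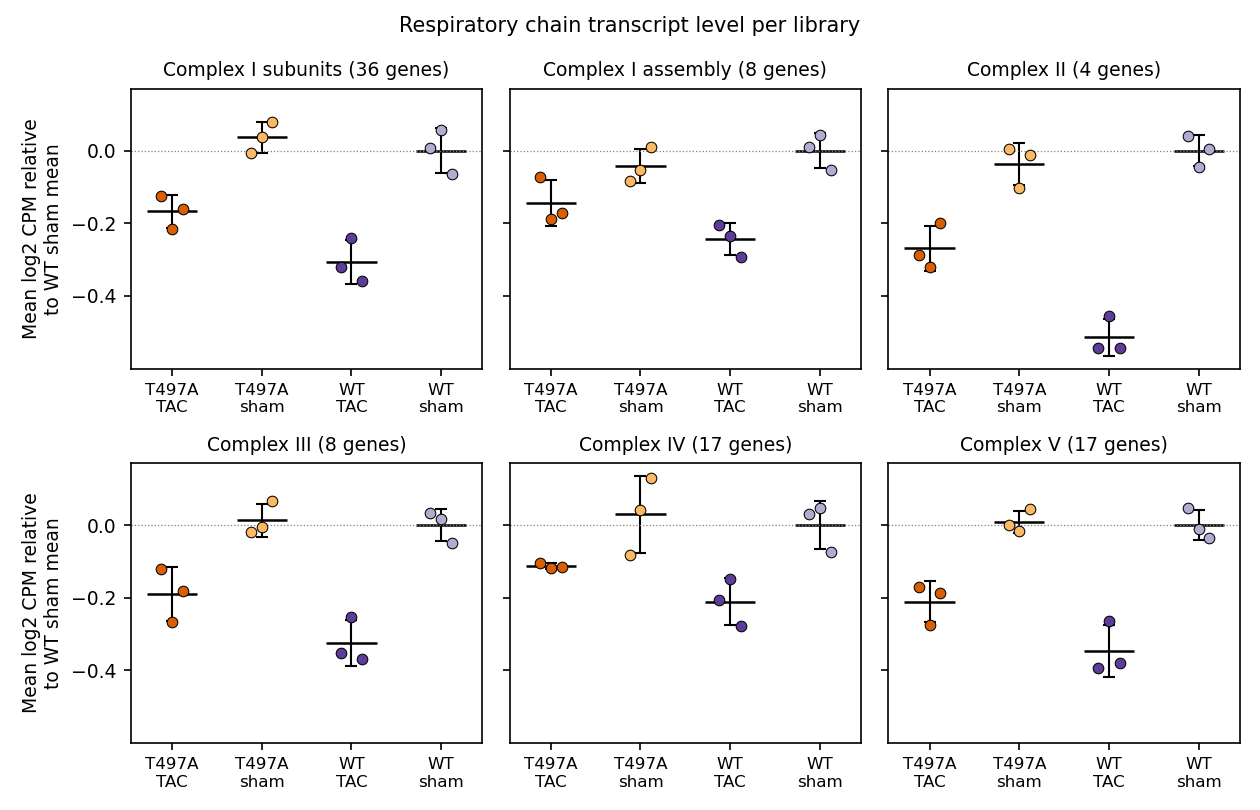
Mean log2 CPM of the members of each class in each library, relative to the WT sham mean, by group; points are libraries, horizontal lines group means and bars SD (n = 3). In all 6 classes the 3 WT TAC libraries lie below the 3 WT sham libraries, and in complex II they reach -0.51 on average. These are TMM-scaled levels. Scaling on cardiomyocyte markers brings the median log2 fold changes of complex I subunits and complexes III and IV to between 0.009 and 0.018. It brings that of assembly factors to 0.079, leaves those of complexes II and V negative, and moves the median of all tested genes to 0.35.

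Complex II, succinate dehydrogenase, is also an enzyme of the tricarboxylic acid cycle, and all 4 of its genes fell after TAC in WT mice, with a median log2 fold change of -0.51. Sdha encodes the flavoprotein that oxidises succinate and lies on chromosome 13 from 74322254 to 74350280 of GRCm38. It had 967, 1006 and 970 CPM in WT TAC libraries and 1791, 1569 and 1684 CPM in WT sham libraries. The WT TAC libraries were all low and close together, and the groups did not overlap. Sdha fell by 0.78 ± 0.08 on the log2 scale (adjusted p = 2.36e-05). Sdhc, a membrane anchor on chromosome 1 from 171127165 to 171150603, had 286, 296 and 283 CPM in WT TAC libraries, against 438, 414 and 429 CPM in WT sham libraries, again with no overlap. Its log2 fold change was -0.57 ± 0.06 (adjusted p = 2.54e-05). The iron-sulfur subunit gene Sdhb fell by 0.45 ± 0.06 (adjusted p = 0.000108), and the second anchor gene Sdhd by 0.26 ± 0.07 (adjusted p = 0.0103).

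Of the 36 complex I subunit genes, 29 fell after TAC in WT mice, and the class median was -0.33 (log2 fold change). The 7 nuclear core subunits, which carry the flavin and the iron-sulfur clusters, all fell, with a median of -0.41. Among the 29 supernumerary subunits, which surround the core, 22 fell and the median was -0.27. Ndufs1, the largest iron-sulfur subunit, on chromosome 1 from 63143596 to 63176833, had 496, 533 and 504 CPM in WT TAC libraries and 783, 748 and 799 CPM in WT sham libraries. The groups were far apart, and Ndufs1 fell by 0.60 ± 0.07 (adjusted p = 6.59e-05). Ndufs4, a supernumerary subunit whose loss causes complex I deficiency, fell by 0.50 ± 0.08 (adjusted p = 0.000456).

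Not every complex I gene took part. Ndufa11, a membrane-arm subunit, had 77.3, 93.0 and 91.8 CPM in WT TAC libraries, against 84.0, 87.7 and 78.7 CPM in WT sham libraries, and the groups overlapped (log2 fold change 0.06 ± 0.08, adjusted p = 0.617). The membrane-arm gene Ndufb3 had a log2 fold change of -0.07 ± 0.06 (adjusted p = 0.444).

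Of the 8 Ndufaf assembly factors, 4 fell after TAC in WT mice, and their median log2 fold change was -0.26, against -0.33 for the complex I subunits. Whether factors and subunits differ was not tested. The largest of these was that of Ndufaf4, at -0.45 ± 0.11 (adjusted p = 0.00798), followed by Ndufaf5 at -0.30 ± 0.09 (adjusted p = 0.0304). Ndufaf1, part of the membrane-arm assembly complex, had 46.5, 47.6 and 45.4 CPM in WT TAC libraries and 51.8, 58.6 and 56.9 CPM in WT sham libraries, without overlap (log2 fold change -0.26 ± 0.07, adjusted p = 0.0137). Ndufaf3 had a log2 fold change of -0.15 ± 0.10 (adjusted p = 0.306). That of Ndufaf2 was -0.05 ± 0.10 (adjusted p = 0.79), but 63.2% of the 75-base windows of its transcripts also occur in another gene, so its count is uncertain.

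**Figure D2:**
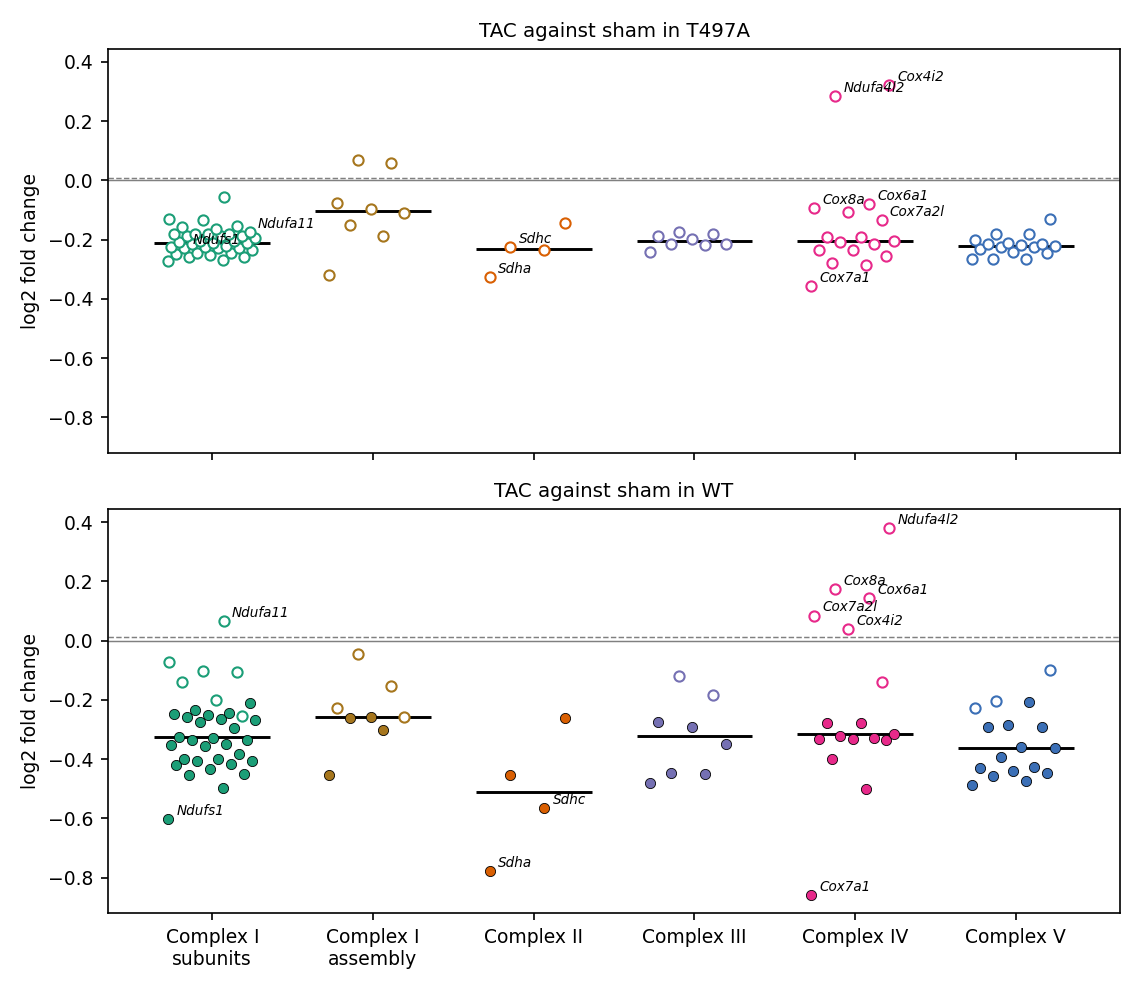
Log2 fold change of each member after TAC in T497A (upper panel) and in WT (lower panel), by class; filled points pass the adjusted threshold of 0.05, open points do not, black lines are class medians and the dashed grey line is the median of all tested genes. The WT panel holds 68 filled points, all below zero on this TMM scale, and the T497A panel holds 0.

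In complex III, 6 of 8 genes fell after TAC in WT mice, and the class median was -0.32 (log2 fold change). The 2 core protein genes and the Rieske iron-sulfur protein gene lay together at the lower end. Uqcrc1 had 569, 666 and 596 CPM in WT TAC libraries, against 906, 859 and 789 CPM in WT sham libraries, with no overlap. It fell by 0.48 ± 0.07 (adjusted p = 0.000338). Uqcrc2 fell by 0.45 ± 0.06 (adjusted p = 0.000231) and Uqcrfs1, the Rieske protein, by 0.45 ± 0.06 (adjusted p = 0.000175). The small subunit genes Uqcr11 and Uqcr10 had log2 fold changes of -0.18 ± 0.09 and -0.12 ± 0.07 and did not pass (adjusted p = 0.167 and 0.221).

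Complex IV had the widest spread of the 6 classes in WT mice. Of its 17 genes, 11 fell, and the log2 fold changes ran from -0.86 to 0.38 around a median of -0.32. The lowest was Cox7a1, the heart and skeletal muscle isoform of subunit 7a, on chromosome 7 from 30184144 to 30186078. It had 169, 185 and 151 CPM in WT TAC libraries and 295, 338 and 281 CPM in WT sham libraries. Each WT TAC library was far below each WT sham library, and Cox7a1 fell by 0.86 ± 0.10 (adjusted p = 6.99e-05). Cox7b and Cox7c, which have no muscle isoform partner in this set, fell by 0.50 ± 0.06 (adjusted p = 8.19e-05) and 0.40 ± 0.08 (adjusted p = 0.00306).

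The muscle isoforms and their widespread partners were then set side by side. Cox7a2, the partner of Cox7a1, had 163, 166 and 149 CPM in WT TAC libraries, against 202, 195 and 183 CPM in WT sham libraries, and fell by 0.28 ± 0.07 (adjusted p = 0.00975). Cox8b, the muscle isoform of subunit 8, fell by 0.33 ± 0.09 (adjusted p = 0.0122). Its partner Cox8a had 50.8, 57.2 and 52.4 CPM in WT TAC libraries and 49.3, 49.3 and 43.3 CPM in WT sham libraries. The WT TAC values lay above the others without overlap, but the log2 fold change of 0.17 ± 0.09 did not pass (adjusted p = 0.192). Cox6a2, the muscle isoform of subunit 6a, fell by 0.32 ± 0.08 (adjusted p = 0.0116). Cox6a1 had 32.5, 34.7 and 33.6 CPM in WT TAC libraries and 32.4, 31.2 and 27.6 CPM in WT sham libraries, a log2 fold change of 0.14 ± 0.09 (adjusted p = 0.278).

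Within each pair the muscle isoform made up a smaller share in WT TAC libraries, a ratio that scaling does not change. Cox7a1 made up 51.3 ± 1.28% of the Cox7a1 and Cox7a2 CPM in WT TAC libraries and 61.1 ± 2.15% in WT sham libraries (SD, n = 3 each). Cox8b made up 73.4 ± 0.68% of its pair in WT TAC libraries and 79.6 ± 0.58% in WT sham libraries. For Cox6a2 the shares were 93.9 ± 0.15% and 95.5 ± 0.15%. In all 3 pairs the WT TAC libraries lay below the WT sham libraries without overlap. The shares are CPM without correction for length and were not tested.

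**Figure D3:**
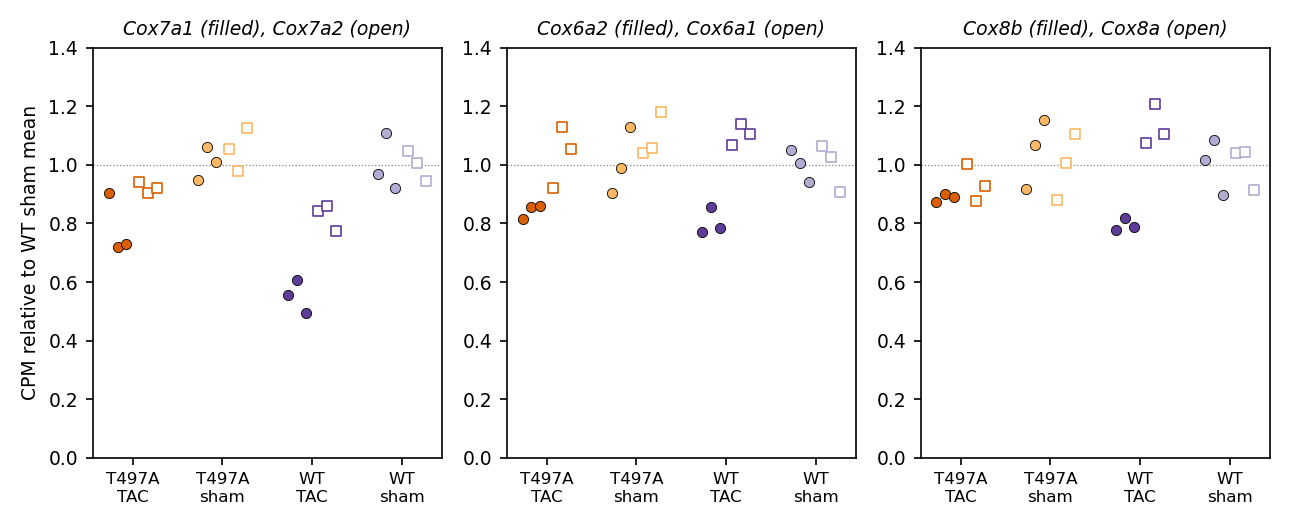
CPM of the muscle isoform (filled circles) and its widespread partner (open squares) of 3 complex IV subunits in each library, relative to the WT sham mean of the same gene, by group. Cox7a1 falls to between 0.5 and 0.61 in WT TAC libraries, while Cox8a and Cox6a1 stay above 1 there.

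Cox4i2 and Ndufa4l2, isoforms induced by low oxygen in other cell systems, stayed rare. Ndufa4l2 had 13.4, 11.9 and 11.4 CPM in WT TAC libraries and 10.3, 10.2 and 7.7 CPM in WT sham libraries. Its values did not overlap, but the log2 fold change of 0.38 ± 0.18 did not pass (adjusted p = 0.15). Cox4i2 had 5.74, 5.38 and 4.82 CPM in WT TAC libraries, against 5.38, 5.16 and 5.00 CPM in WT sham libraries (log2 fold change 0.04 ± 0.16, adjusted p = 0.888). Their partners Ndufa4 and Cox4i1 both fell by 0.33 ± 0.06 (adjusted p = 0.00202 and 0.000998). Ndufa4l2 accordingly made up 3.25 ± 0.26% of its pair in WT TAC libraries and 2.00 ± 0.22% in WT sham libraries, and Cox4i2 0.745 ± 0.07% and 0.577 ± 0.004%. Summed over 8 smooth muscle and pericyte markers, which mark cells known to express both rare isoforms, libraries held 884 to 1001 CPM in WT TAC and 984.5 to 1027 CPM in WT sham, and 1012 to 1106 CPM in T497A TAC and 1069 to 1115 CPM in T497A sham, and their part was not tested. Other genes of the class gave values that did not pass, with log2 fold changes of -0.14 ± 0.06 for Cox6b1 and 0.08 ± 0.08 for Cox7a2l (adjusted p = 0.114 and 0.471).

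In complex V, 14 of 17 genes fell after TAC in WT mice, with a median log2 fold change of -0.36. All 5 genes of the catalytic F1 head fell, with a median of -0.44, as did all 4 of the peripheral stalk, with a median of -0.40. Atp5a1, the alpha subunit, had 2831, 3194 and 2927 CPM in WT TAC libraries and 4313, 4093 and 4135 CPM in WT sham libraries. The groups did not overlap, and Atp5a1 fell by 0.49 ± 0.07 (adjusted p = 0.000223). Atp5c1, the gamma subunit of the rotating stalk, fell by 0.47 ± 0.06 (adjusted p = 0.000182), and Atp5pb, the b subunit of the peripheral stalk, by 0.46 ± 0.06 (adjusted p = 0.00016).

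The 3 c-ring genes encode the same mature protein with different import sequences, and all 3 were lower in WT TAC. Atp5g3 had 666, 719 and 664 CPM in WT TAC libraries, against 979, 912 and 906 CPM in WT sham libraries, and fell by 0.45 ± 0.06 (adjusted p = 0.000128). Atp5g1 and Atp5g2 fell by 0.29 ± 0.09 each (adjusted p = 0.0336 and 0.0353), and 35.8% of the 75-base windows of Atp5g2 also occur in another gene. Of the 5 other membrane subunits 2 fell, with a median of -0.23. Among these, Atp5j2 and Atp5l, the f and g subunits, had log2 fold changes of -0.20 ± 0.07 and -0.10 ± 0.13 (adjusted p = 0.0538 and 0.641).

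Windows around the transcription start were read for 74 members matched by symbol in RefSeq (GRCm38.p6), from 250 bases before the start to 50 after it. They were searched on both strands for motifs of factors known to regulate respiratory genes. The NRF1 core, GCGC and a second GCGC with any pair of bases between them, was present in 20 of the 74 windows, or 27.0%, and in 12.7% of the windows of 11478 tested genes. The YY1 motif AAGATGGC was in 10 windows (13.5%, against 4.36% of tested genes), the estrogen-related receptor motif TCAAGGTCA in 2 (2.7%, against 0.279%), and the ETS motif CCGGAAGT in 5 (6.76%, against 7.69%). The shorter AAGGTCA, which lies inside the receptor motif, was in 8 windows (10.8%, against 3.23%). Members with the NRF1 core had a median log2 fold change of -0.35 after TAC in WT mice and those without it -0.28, a description only. The 4 windows shown are those of Sdha and Cox7a1, the genes with the lowest log2 fold changes in WT TAC, of Atp5g3, which holds both the receptor motif and the NRF1 core, and of Cox6a1, which did not fall. Matches are in capitals, and each window is given 5′ to 3′ on the strand of its gene.
Sdha, chr13:74350191-74350490, minus strand: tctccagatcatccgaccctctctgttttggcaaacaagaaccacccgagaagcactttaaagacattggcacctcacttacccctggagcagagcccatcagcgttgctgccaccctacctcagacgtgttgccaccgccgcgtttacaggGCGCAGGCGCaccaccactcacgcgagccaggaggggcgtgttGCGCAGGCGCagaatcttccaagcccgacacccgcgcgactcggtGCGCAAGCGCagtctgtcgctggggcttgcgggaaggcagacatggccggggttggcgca
Cox7a1, chr7:30183921-30184220, plus strand: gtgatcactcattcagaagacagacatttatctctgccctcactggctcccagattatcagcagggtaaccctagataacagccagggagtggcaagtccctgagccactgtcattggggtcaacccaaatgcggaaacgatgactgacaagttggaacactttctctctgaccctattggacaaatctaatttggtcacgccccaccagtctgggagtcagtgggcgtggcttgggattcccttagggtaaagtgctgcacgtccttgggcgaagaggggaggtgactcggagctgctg
Atp5g3, chr2:73911277-73911576, minus strand: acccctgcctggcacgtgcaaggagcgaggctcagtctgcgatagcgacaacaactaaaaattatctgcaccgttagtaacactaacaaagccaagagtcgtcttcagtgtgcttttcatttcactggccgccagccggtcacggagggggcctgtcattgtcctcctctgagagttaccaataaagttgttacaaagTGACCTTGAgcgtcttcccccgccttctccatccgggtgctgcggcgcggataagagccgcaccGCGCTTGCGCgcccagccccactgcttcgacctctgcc
Cox6a1, chr5:115348909-115349208, minus strand: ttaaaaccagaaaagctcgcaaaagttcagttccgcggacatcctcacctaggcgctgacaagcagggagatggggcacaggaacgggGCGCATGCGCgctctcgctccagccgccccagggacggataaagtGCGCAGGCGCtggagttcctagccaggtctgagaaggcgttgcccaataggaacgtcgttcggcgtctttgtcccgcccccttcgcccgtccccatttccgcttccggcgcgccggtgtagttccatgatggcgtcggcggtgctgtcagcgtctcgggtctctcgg
The Sdha window holds 3 matches to the NRF1 core and the Cox6a1 window 2, although Sdha fell and Cox6a1 did not. The Cox7a1 window holds no match to any of the motifs, which says only that these letters are not in this window.

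In T497A mice most of these genes also had estimates below zero after TAC, and none passed the threshold. Of the 90 members, 86 had a log2 fold change below zero and the median was -0.21, against 0.01 over all tested genes; scaled on cardiomyocyte markers, 79 were below zero and the median was -0.08, against 0.14 over all tested genes. Called lower were 0 members and called higher 0, where 0.0507% of tested genes were lower and 0.0634% were higher. At an unadjusted p under 0.05, 67 members were lower and 0 were higher, where 893 and 944 of 15764 tested genes were. Scaled on cardiomyocyte markers, 1 member was lower and 1 higher at that cut. In 69 members the T497A TAC libraries lay below the T497A sham libraries without overlap, and in 1 above, against 7.68% and 7.71% of tested genes. Class medians were -0.21 for complex I subunits, -0.10 for assembly factors, -0.23 for complex II, -0.20 for complexes III and IV and -0.22 for complex V. With DESeq2 in place of edgeR 17 members were called lower, where 132 of all 29969 genes tested were. Without the filter on low counts there were 7, where 156 of 29988 genes were lower.

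At the single-gene level, Cox7a1 had 276, 220 and 223 CPM in T497A TAC libraries, against 290, 323 and 308 CPM in T497A sham libraries. The first of these libraries stood nearer to the sham values than the other 2, and the log2 fold change was -0.36 ± 0.10 (adjusted p = 0.205). Sdha had 1210, 1207 and 1372 CPM in T497A TAC libraries and 1710, 1442 and 1593 CPM in T497A sham libraries, without overlap (log2 fold change -0.33 ± 0.08, adjusted p = 0.142). The lowest complex I subunit was Ndufa12 at -0.27 ± 0.11 (adjusted p = 0.344), and the highest Ndufb3 at -0.06 ± 0.06 (adjusted p = 0.805).

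Among the assembly factors in T497A mice, Ndufaf3 had 12.8, 12.2 and 11.8 CPM in TAC libraries and 14.6, 16.6 and 14.8 CPM in sham libraries, a log2 fold change of -0.32 ± 0.10 (adjusted p = 0.246). Ndufaf2 had 0.07 ± 0.10 (adjusted p = 0.861). In complex III the values ran from -0.24 ± 0.07 for Uqcrc1 to -0.17 ± 0.07 for Uqcr10 (adjusted p = 0.21 and 0.33), and in complex V from -0.27 ± 0.06 for Atp5g3 to -0.13 ± 0.09 for Atp5g2 (adjusted p = 0.107 and 0.656). Cox4i2 was the highest member, with 5.27, 6.31 and 6.02 CPM in TAC libraries and 3.73, 4.88 and 5.46 CPM in sham libraries (log2 fold change 0.32 ± 0.16, adjusted p = 0.449). Among the isoform shares, Cox7a1 made up 57.2 ± 2.63% of its pair in T497A TAC libraries and 60.1 ± 2.57% in T497A sham libraries, with overlap, and Cox8b 78.8 ± 1.41% and 80.4 ± 0.17%, without overlap.

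**Figure D4:**
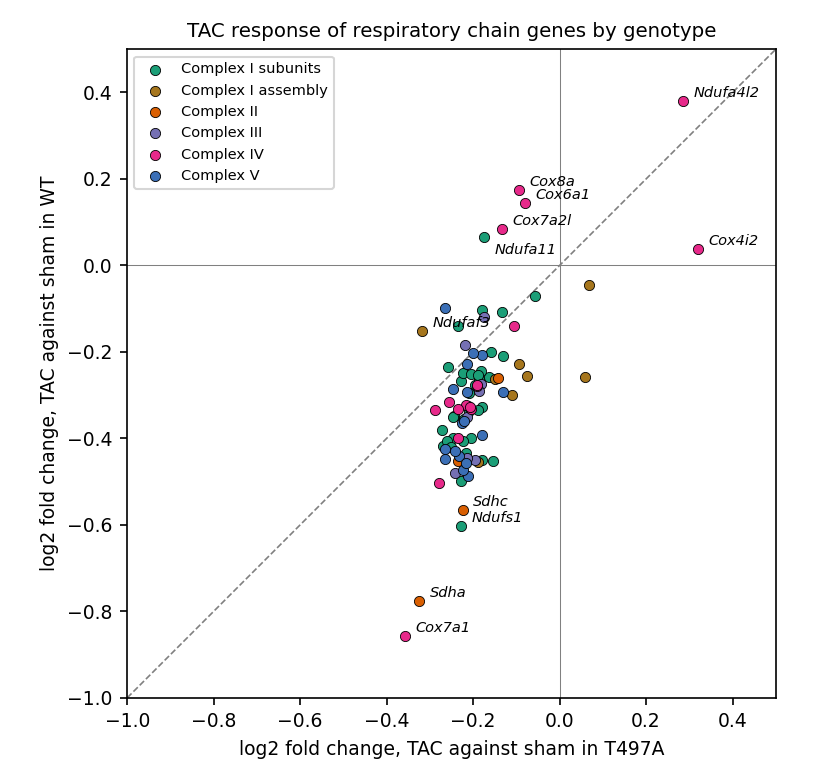
Log2 fold change of the 90 members after TAC in T497A (x axis) and in WT (y axis), coloured by class; the dashed line marks equal change. On this TMM scale 77 of 90 members have the lower estimate in WT, against 21 of 90 with scaling on cardiomyocyte markers, and Cox7a1 and Sdha lie farthest down.

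Whether the response to TAC differed between genotypes was tested with the interaction, the T497A change less the WT change. It gave 0 members called in either direction, where 0.894% of tested genes were called higher and 0.679% lower. The estimate was above zero in 77 of 90 members, with a median of 0.12, and in 7853 of the 15764 tested genes. Scaled on cardiomyocyte markers the direction turned, with 21 of 90 members above zero and a median of -0.09, against -0.21 over all tested genes, and 0 members were called. With that scaling 1 member was higher and 5 were lower at an unadjusted p under 0.05. On the TMM scale 18 members were higher and 0 lower at that cut, where 1402 and 1245 of 15764 tested genes were. Nearest to the threshold were Sdhc at 0.34 ± 0.08 (adjusted p = 0.0573), Sdha at 0.45 ± 0.11 (adjusted p = 0.0605), Ndufs1 at 0.37 ± 0.10 (adjusted p = 0.0777) and Cox7a1 at 0.50 ± 0.14 (adjusted p = 0.0954). DESeq2 called 5 members higher, these 4 among them, and edgeR without the low-count filter called the first 4. Those fits called 432 of 29969 and 484 of 29988 genes higher. At the other end lay Cox8a at -0.27 ± 0.13 and Ndufa11 at -0.24 ± 0.12 (adjusted p = 0.324 and 0.331). The extremes of the other classes were Ndufaf6 at 0.31 ± 0.15 and Ndufaf3 at -0.17 ± 0.14, Uqcrc2 at 0.25 ± 0.09 and Uqcr10 at -0.05 ± 0.10, and Atp5a1 at 0.28 ± 0.10 and Atp5l at -0.17 ± 0.19, with adjusted p from 0.164 to 0.826.

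Compared directly after TAC, 15 members were higher in T497A TAC than in WT TAC and 0 were lower, where 4.64% of tested genes were higher and 4.06% lower. Of 1289 other genes at least as abundant as the members' lower quartile, 13.0% were higher and 7.53% lower. Scaled on cardiomyocyte markers, none of the 15 passed, 0 members were higher and 1 was lower, and the median log2 fold change was 0.01, against 0.14 on the TMM scale. That scaling gave 189 of 15764 tested genes higher and 754 lower, with a median of -0.13. In 40 members the T497A TAC libraries lay above the WT TAC libraries without overlap, and in 4 below, against 14.4% and 13.6% of tested genes. The 15 comprised 3 of 4 genes of complex II, 6 of 36 subunits of complex I, 1 of 8 of complex III, 2 of 17 of complex IV, 3 of 17 of complex V and 0 of 8 assembly factors. This comparison shares its TAC libraries with those above.

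Cox7a1 differed most, with 276, 220 and 223 CPM in T497A TAC libraries and 169, 185 and 151 CPM in WT TAC libraries. Its lowest T497A library was above the highest WT library, and it was higher in T497A by 0.51 ± 0.10 (adjusted p = 0.00921). Sdha was higher by 0.36 ± 0.08 (adjusted p = 0.0134), with 1210, 1207 and 1372 CPM in T497A TAC libraries, against 967, 1006 and 970 CPM in WT TAC libraries. Ndufs1 had 669, 604 and 685 CPM in T497A TAC libraries and 496, 533 and 504 CPM in WT TAC libraries, without overlap (log2 fold change 0.35 ± 0.07, adjusted p = 0.00958).

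Sdhc followed at 0.29 ± 0.06 (adjusted p = 0.00968), and Sdhb at 0.22 ± 0.06 (adjusted p = 0.0306), while Sdhd did not pass (0.11 ± 0.07, adjusted p = 0.332). In complex I, Ndufs4, Ndufv2, Ndufa5 and Ndufab1, the mitochondrial acyl carrier protein, also passed, with log2 fold changes from 0.25 to 0.32. The remaining calls were Uqcrfs1 (0.23 ± 0.06), Cox7b (0.27 ± 0.06), Atp5c1 (0.25 ± 0.07), Atp5pb (0.25 ± 0.06) and Atp5md (0.29 ± 0.06), a small membrane subunit, with adjusted p from 0.0134 to 0.0336. At the low end, with values that did not pass, were Cox8a at -0.27 ± 0.09 and Ndufa11 at -0.25 ± 0.08 (adjusted p = 0.0871 and 0.0793), both below in T497A TAC without overlap.

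These calls depended on single libraries. Without WT TAC replicate 3 only 1 member was called higher, without T497A TAC replicate 3 there were 2, without T497A TAC replicate 1 there were 5 and without WT TAC replicate 1 there were 9. Calls fell among all genes too. In the same 4 fits 260, 318, 373 and 454 tested genes were higher, against 731 with every library. None of the 15 was called in all 12 fits that left out 1 library. A fit to the 6 TAC libraries alone called 4: Cox7a1, Sdha, Ndufs1 and Sdhc. Of the 15160 genes tested in that fit, 416 were higher and 500 lower.

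**Figure D5:**
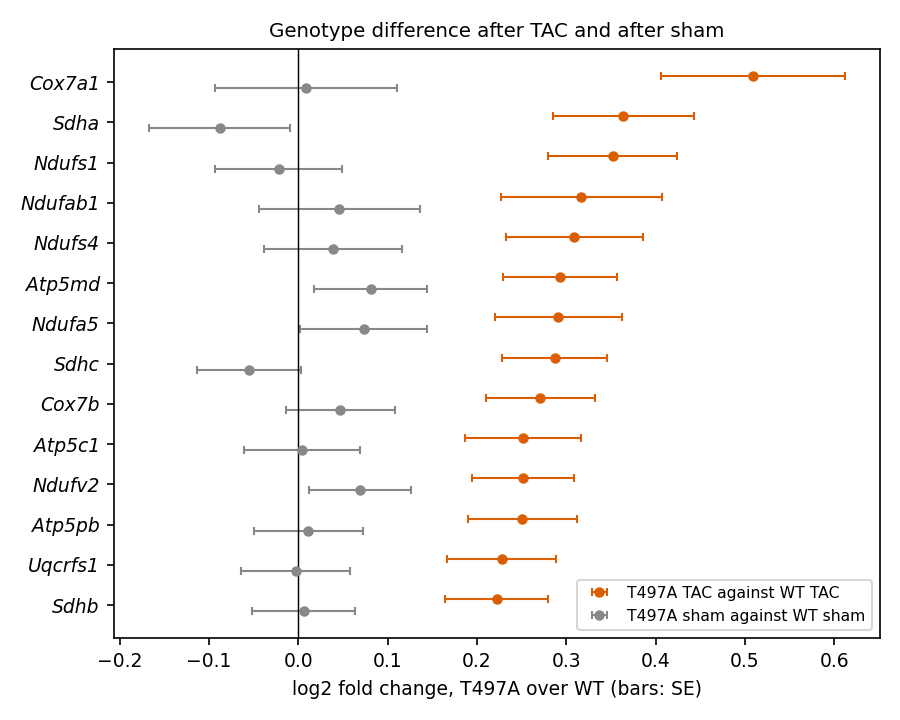
Log2 fold change of T497A over WT after TAC (orange) and after sham surgery (grey) for 14 of the 15 members called higher in T497A TAC, with bars of 1 SE. Values after TAC run from 0.22 for Sdhb to 0.51 for Cox7a1, and values after sham surgery lie between -0.09 and 0.08.

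Between the sham groups no member passed, with 0 lower and 0 higher in T497A sham, where 0% of tested genes were lower and 0.0254% higher. At an unadjusted p under 0.05 there was 1 member lower and 1 higher, where 218 and 259 of 15764 tested genes were. DESeq2 also called 0 members, and the members' median log2 fold change was 0.03. In 1 member the T497A sham libraries lay below the WT sham libraries without overlap and in 6 above, against 3.98% and 4.23% of tested genes. The extremes were Ndufaf6 at -0.23 ± 0.11 and Ndufa6 at 0.15 ± 0.07, both with an adjusted p of 1. Of the genes that differed after TAC, Cox7a1 had 290, 323 and 308 CPM in T497A sham libraries and 295, 338 and 281 CPM in WT sham libraries (log2 fold change 0.01 ± 0.10), and Sdha differed by -0.09 ± 0.08. Differences of this size were within the spread of 3 libraries a group.

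Averaged over both genotypes, TAC lowered 76 of the 90 members and raised 0, where 11.2% of tested genes were lower and 11.2% higher. With scaling on cardiomyocyte markers 5 members were lower and 5 higher, where 506 of 15764 tested genes were lower and 5621 higher. This average includes the WT contrast and is given for its count.

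All 13 subunits encoded by mitochondrial DNA were lower in WT TAC, with a median log2 fold change of -0.67, where 12.6% of tested genes were lower and 12.3% higher. In T497A the median was -0.31 and 0 were called. Of the 13, 9 were higher in T497A TAC than in WT TAC, where 4.64% of tested genes were higher. Scaled on cardiomyocyte markers, 5 of the 13 were lower in WT TAC (median -0.35) and 0 were higher in T497A TAC than in WT TAC. Of 18 electron carriers and coenzyme Q genes 13 were lower and 1 was higher in WT TAC, against 2 lower and 1 higher with that scaling. The lowest were Etfb at -0.88 ± 0.10, Etfa at -0.73 ± 0.07 and Etfdh at -0.67 ± 0.09, which carry electrons from fatty acid oxidation to ubiquinone (adjusted p = 5.31e-05, 2.1e-05 and 0.000114).

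Among assembly factors outside the Ndufaf family in WT TAC, 5 of 11 other complex I factors were lower and 0 higher, 0 of 4 complex II factors passed, 2 of 6 complex III factors were lower and 1 higher, and 5 of 22 complex IV factors were lower and 1 higher, with no test of a difference between complexes. The shares over all tested genes were 12.6% lower and 12.3% higher. Scaled on cardiomyocyte markers, 1 factor of these 4 lists was lower and 4 were higher, where 556 of 15764 tested genes were lower and 5770 higher. Acad9, a complex I factor, had a log2 fold change of -0.51 ± 0.08 in WT and 0.06 ± 0.08 in T497A, and its interaction passed at 0.57 ± 0.12 (adjusted p = 0.0341), but not with scaling on cardiomyocyte markers (0.36, adjusted p = 0.2). Of 5 complex V genes 4 were lower, and Atpif1, the inhibitor of ATP hydrolysis by complex V, was higher by 0.31 ± 0.10 (adjusted p = 0.0384). Of 6 supercomplex and cristae genes 3 were lower and 0 higher, among them Opa1 at -0.57 ± 0.06 (adjusted p = 3.85e-05). Scaled on cardiomyocyte markers, 0 of the 5 complex V genes were lower and 1, Atpif1, was higher. With that scaling 1 of the 6 supercomplex and cristae genes was lower and 2 were higher.

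Markers of some cell types also differed between groups. Summed over 14 cardiomyocyte markers, libraries held 58860 to 69780 CPM in WT TAC and 77640 to 87760 CPM in WT sham, and 69510 to 73140 CPM in T497A TAC and 71540 to 81520 CPM in T497A sham. Of these 14, 7 were lower and 1 was higher in WT TAC, with a median log2 fold change of -0.29. Summed over 9 fibroblast markers the ranges were 4046 to 4539 CPM in WT TAC and 1981 to 2109 CPM in WT sham, and 2537 to 3108 CPM in T497A TAC and 1978 to 2457 CPM in T497A sham. The 9 macrophage markers ran from 322 to 406 CPM in WT TAC and from 200 to 236 CPM in WT sham, and from 259 to 338 CPM in T497A TAC and from 225 to 274 CPM in T497A sham. Called higher in WT TAC were 6 of 9 fibroblast and 7 of 9 macrophage markers, where 12.3% of tested genes were higher. The rarest marker of these 3 lists averaged 4.89 CPM in its lowest group. Endothelial markers had 0 of 8 called in WT TAC, and 4 of 6 erythrocyte markers were higher. Of the skeletal muscle list, the fast-fibre gene Myh4 averaged 0.314 CPM in T497A TAC, 7.36 in T497A sham, 5.68 in WT TAC and 4.95 in WT sham libraries, and Acta1, which the heart also makes, averaged 3074 CPM in WT TAC and 235 CPM in WT sham libraries. Of 8 brown fat and adipocyte markers 4 were abundant enough to test and 0 were called. Their part in the fall of the respiratory genes was not tested.

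When libraries were instead scaled on the cardiomyocyte markers, the median of all tested genes moved to 0.35 in WT TAC and the members' median to 0.01. That scale takes the summed raw counts of the markers as library size, so the most abundant markers weigh most. Whether the markers themselves change within cardiomyocytes after TAC was not tested. On that scale 4 members were lower in WT TAC, namely Sdha at -0.44 ± 0.08, Cox7a1 at -0.53 ± 0.14, Ndufs1 at -0.27 ± 0.08 and Sdhc at -0.23 ± 0.08 (adjusted p = 0.000787, 0.00739, 0.0168 and 0.0319). Another 5 were higher, namely Ndufa4l2, Cox8a, Cox6a1, Cox7a2l and Ndufa11, with log2 fold changes from 0.39 to 0.72, all above the median of all genes on that scale. Of all 15764 tested genes, 556 were lower and 5770 higher in WT TAC with this scaling. Between T497A TAC and WT TAC, 0 members were then higher and 1, Ndufa11, was lower at -0.37 ± 0.10 (adjusted p = 0.0384), while the median of all tested genes stood at -0.13.

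High expression was shared by most members. Among 1289 other genes at least as abundant as the members' lower quartile, 32.0% were lower and 14.7% higher in WT TAC. Their median log2 fold change was -0.10. Across the 90 members the log2 fold change in WT TAC had a Spearman correlation of -0.58 with mean log2 CPM and of -0.43 with principal transcript length. Over 13766 tested genes the same values were -0.21 and -0.07. These correlations are across genes that share libraries and depth and are descriptions. Of the 90 members, 49 had no 75-base window in common with another gene's transcripts, and 17 had more than 10% in common, so that their counts depend on how reads with several matches were treated.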

How the data were processed

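Whole-number read counts per gene, not normalized, were used as the authors deposited them: 55401 genes in 12 left ventricle libraries, with every column matched to a sample by its name in the label description. The submitters' processing notes name mm10 and, with no order or settings, STAR 2.7.3a, Trim Galore 0.6.4, Subread 1.6.3, featureCounts and limma 3.50.3. How strand and multiply matching reads were handled is not given in the sources used here. The replicate label does not distinguish samples, and numbers follow accession order and pair nothing. No pair of libraries within a group agreed within sampling noise (chi-square per degree of freedom at least 23.1).

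Low genes were removed with filterByExpr (minimum count 10). edgeR 4.0.16 (R 4.3.3) then fitted 1 quasi-likelihood model to all 4 groups, with TMM factors and robust dispersion, and was first checked on simulated counts. SEs were derived from each fold change and its F statistic. Genes were named by rank within each class: the 3 lowest and 2 highest log2 fold changes in WT TAC (all 4 for complex II), the lowest and the highest in other comparisons, called members up to 10 by p, and isoform pairs. The sham comparison gives only the extremes of all members and the average only its count, and any further gene was chosen with its values in view. The single values of 1 member the rule names are not reported here. Members and lists were chosen with earlier results of these data known. Positions and transcript lengths came from a GENCODE annotation of GRCm38. Alternatives were DESeq2 1.42.0, limma-voom 3.58.1, other size factors, no low-count filter, scaling on cardiomyocyte markers, mitochondrial genome genes left out, a higher count minimum for members, fits to the compared groups only, and leaving out each library.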

Additional observations from a re-analysis of the deposited data

Results flagged for a closer look

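None of the 90 members met a rule for a closer look, but 6 genes of the wider pathway lists did, because the response to TAC differed between genotypes in edgeR's interaction term. These lists, of assembly factors, carriers, supercomplex factors and mitochondrial DNA genes, held 11, 4, 6, 22, 5, 18, 6 and 13 tested genes. Among all tested genes the interaction called 0.894% higher and 0.679% lower. In all 6 the TAC estimate was higher in T497A than in WT mice. The estimates of the difference had positive sign in each of the 18 alternatives run. Atpaf1, an assembly factor of complex V, averaged 30.4 CPM in T497A TAC and 30.1 CPM in T497A sham, against 22.9 CPM in WT TAC and 35.5 CPM in WT sham libraries. Its interaction was 0.646 (adjusted p = 0.0119) and passed in 17 of the 18 alternatives, with adjusted p from 7.54e-06 to 0.173. The other 5 passed in 7 to 9 alternatives. Opa1, which shapes the cristae, had an interaction of 0.454 (adjusted p = 0.0249, range 0.000242 to 0.303). Acad9 had 0.575 and the coenzyme Q factor Coq9 had 0.429 (adjusted p = 0.0341 each, with ranges of 0.00194 to 0.2 for Acad9 and 0.000749 to 0.42 for Coq9). For Etfa it was 0.479 (adjusted p = 0.0395, range 0.000642 to 0.324). For Lrpprc, which stabilises mitochondrial transcripts, it was 0.442 (adjusted p = 0.0481, range 0.00488 to 0.285). With scaling on cardiomyocyte markers none of the 6 passed, with log2 interaction values from 0.221 for Coq9 to 0.435 for Atpaf1.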

How the results depend on the processing

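Scaling on cardiomyocyte markers gave the only changes of sign among the class medians of WT TAC and T497A TAC and among the called genes compared under each alternative. The other called members were compared for sign under this scaling only. It left 4 members lower and 5 higher in WT TAC, 1 lower and 0 higher in T497A TAC against WT TAC, and 5 lower and 5 higher in TAC averaged over genotypes. Among all 15764 tested genes, in the same order, 556 were lower and 5770 higher, 754 and 189, and 506 and 5621. WT TAC class medians (log2) became 0.009 for complex I subunits, 0.079 for assembly factors, -0.174, 0.015, 0.018 and -0.03 for complexes II to V. T497A TAC medians became -0.083, 0.026, -0.102, -0.075, -0.076 and -0.093 in the same order. Of the members called lower, 29 of 68 changed sign in WT TAC and 19 of 76 in the average. Among the genes compared under each alternative these were Cox7a2 (0.06), Cox6a2 (0.0178), Cox8b (0.000486), Cox4i1 (0.00271), Ndufa4 (0.00807), Sdhd (0.0693), Atp5g1 (0.0457) and Atp5g2 (0.0396), in WT TAC, and in the average Sdhd (0.0272) and Atp5g2 (0.0194). The same scaling moved the median of all tested genes to 0.35 in WT TAC, 0.135 in T497A TAC and -0.126 in T497A TAC against WT TAC.

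DESeq2 called 17 members lower in T497A TAC and 5 higher in the interaction, where 132 and 432 of 29969 genes were called. Without the low-count filter the members called were 7 and 4, where 156 and 484 of 29988 genes were called. In the average 1 member was then higher, where 1898 of 29988 genes were. A fit to the compared groups alone called 4 members higher in T497A TAC against WT TAC, where 416 of 15160 genes were higher. Leaving out 1 library at a time gave 52 to 69 members lower in WT TAC, 1 to 20 higher and 0 to 1 lower in T497A TAC against WT TAC, 0 to 3 higher in the interaction, and 67 to 77 lower and 0 to 1 higher in the average. The highest count in T497A TAC against WT TAC came without T497A TAC replicate 2 and the lowest without WT TAC replicate 3. Among all tested genes 762 and 260 were higher in these fits, against 731 with every library. The 3 members higher in the interaction came without T497A TAC replicate 2, where 271 tested genes were higher, against 141 with every library. In the average, the fit with 77 members lower left out T497A TAC replicate 1 and had 1735 tested genes lower. Without T497A TAC replicate 3, a fit with 67 members lower, 1602 tested genes were lower, against 1764 with every library. The causes were not tested. No paired analysis was possible because all titles carry the same replicate number. Depth limits the rarest members most, down to the 222 mean raw counts of Cox4i2.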
